A study of Mus musculus with 6 samples.

Results

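The genes described here are the lysosome genes of mouse small intestine: the rows of a deposited expression table whose KEGG annotation names the Lysosome pathway. The rule found 199 members among the 54012 genes listed, and left out 6 further rows of the pathway. RNA was sequenced from whole small intestine of mice aged 8 to 12 weeks, with 3 libraries labelled wild type (WT) and 3 labelled TLR4ΔIEC, and the design text gives 3 mice for each genotype. TLR4ΔIEC mice are described as depleted of intestinal Tlr4, the receptor for bacterial lipopolysaccharide, and the labels name no Cre driver, no strain and no segment of the small intestine. The comparison asks which genes differ in level between the tissues of these genotypes. Values are TPM, the share of each gene among all transcripts of a library,, corrected for transcript length. Fold changes are differences of log2(TPM + 1), TLR4ΔIEC minus WT, given with the standard error (SE) from limma. Of the members, 115 reached a mean level of 1 TPM across the 6 libraries and were tested, 84 lay under that level, and 52 of these were at 0 in every library.

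Lysosomes are acidic compartments in which cathepsins, glycosidases, sulfatases and lipases break down material brought in by endocytosis and autophagy. Soluble hydrolases receive a mannose 6-phosphate tag in the Golgi, are bound there by mannose 6-phosphate receptors and leave in clathrin-coated carriers with the help of AP-1 and GGA adaptors, while a proton pump acidifies the lumen and heavily glycosylated membrane proteins such as LAMP1 line it. Many of these genes are known targets of the transcription factors TFEB and TFE3, which bind an E-box with the core CACGTG. In the small intestine, lysosomes are especially large in the absorptive cells of the suckling ileum, and lysosome-like compartments also serve phagocytes of the lamina propria.

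Several facts of the libraries touch every value below. The WT libraries held Tlr4 at 0.65, 0.57 and 0.70 TPM, and those labelled TLR4ΔIEC at 1.29, 1.22 and 4.81 TPM (log2 fold change 0.92, SE 0.40, limma adjusted p = 0.243), so its level was not lower there, and the labels do not say whether the deleted part lies within the measured transcript. The groups are therefore named by their labels throughout. Markers of small intestinal epithelium were present in all 6 libraries, with a summed level of 6573 to 6787 TPM in WT against 8211 to 11219 TPM in TLR4ΔIEC. Alpha-defensins, antimicrobial peptides of Paneth cells, took 25.3 to 28.7% of the TPM in WT against 18.4, 5.21 and 6.61% in TLR4ΔIEC. Each library's TPM sum to the same total, so all other genes together held a share 1.23 times as large in TLR4ΔIEC. The median log2 fold change over all 13458 tested genes was 0.16. The 6 Paneth cell markers summed to 74355 to 83396 TPM in WT against 12436 to 50618.5 TPM in TLR4ΔIEC, and 4 markers of ileal enterocytes to 3263 to 8169.8 TPM and 10954 to 36675 TPM. The 6 goblet cell markers summed to 9538 to 10926 TPM and 16415 to 25609 TPM, while 5 markers of proximal enterocytes summed to 614 to 1799 TPM and 137 to 201 TPM. At an unadjusted limma p under 0.05, 6 of 6 Paneth markers and 4 of 5 proximal markers were lower (3 of the latter past the adjusted threshold), and 5 of 6 goblet, 4 of 4 ileal and 2 of 6 epithelial markers were higher. The remaining proximal marker, Slc40a1, was higher (log2 fold change 1.51, SE 0.27, limma adjusted p = 0.0913), with groups that did not overlap. TLR4ΔIEC replicate 2 stood apart: 12221 genes reached 1 TPM there, and 13197 to 13634 elsewhere. No marker of these lists was at 0 in all 6 libraries, and the part of these differences in the results below was not tested. In RNA from whole tissue, fewer cells of a type and less RNA per cell cannot be told apart. The segment sampled is not labelled for any library. A difference in segment between the groups therefore cannot be told apart from genotype, here or in the results below, and was not tested.

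Lysosome genes were, as a group, higher in the TLR4ΔIEC libraries, by an amount that depended on how the libraries were scaled. Together the 115 tested members held 4721, 4264 and 3901 TPM in the WT libraries (4296 ± 411, SD, n = 3) and 5539, 6649 and 6403 TPM in the TLR4ΔIEC libraries (6197 ± 583, n = 3), a ratio of 1.44. The lowest TLR4ΔIEC library lay above the highest WT library. No member passed the adjusted threshold of 0.05 in limma, where 0.119% of all tested genes passed, and the smallest adjusted p among the members was 0.0828, for Cd164. At an unadjusted limma p under 0.05, 48 of 115 members were higher and 0 lower, which is 41.7% of the members, against 18.4% of all tested genes higher and 2.77% lower. The count of members higher was 24 without WT replicate 2, 21 without WT replicate 3, 31 without TLR4ΔIEC replicate 3 and 41 without TLR4ΔIEC replicate 2. These are 20.7, 18.1, 27.0 and 35.0% of the members. The share of all tested genes higher fell as well, to 10.7, 9.85, 14.2 and 17.4% in the same order. The 3 TLR4ΔIEC libraries all lay above the 3 WT libraries for 50 members (43.5%) and all below for 0, against 24.1% and 3.53% of all tested genes. The fold change was positive for 92 members, against 68.1% of all tested genes, and the median log2 fold change was 0.34 (range −0.73 to 1.95). Of the 115 members, 81 lay above the median of all genes.

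Scaling the libraries in other ways moved members and other genes down together. With median-of-ratios scaling, 15 members were higher and 3 lower at an unadjusted limma p under 0.05, beside 6.32% of all genes higher. Quantile normalization gave 14 higher and 2 lower, beside 7.48% of all genes higher. Leaving out the 20 genes with the highest TPM before rescaling gave 21 higher and 0 lower, beside 9.07%, and leaving out alpha-defensin, mitochondrial and 18S-like genes gave 12 higher and 3 lower, beside 4.35%. In each of these 4 scalings the share of members higher was above the share of all genes, at 13.0, 12.2, 17.8 and 10.3%. The gap between the median log2 fold change of the members and that of all genes was 0.18 with the TPM as deposited and 0.17, 0.12, 0.18 and 0.17 with the other scalings. The members' own median was 0.04 in the last of them, so the size of the group's fold changes moved with the scaling more than their distance above other genes did. In all, 12 members were higher at an unadjusted p under 0.05 in all 5 scalings, among them the hydrolases Acp5, Ctsb, Fuca2 and Neu1, the membrane proteins Cd164, Laptm4b and Litaf, the sulfatase-activating enzyme Sumf1 and the clathrin light chain Cltb. The share of all tested genes that were higher in all 5 was not counted.

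**Figure D1:**
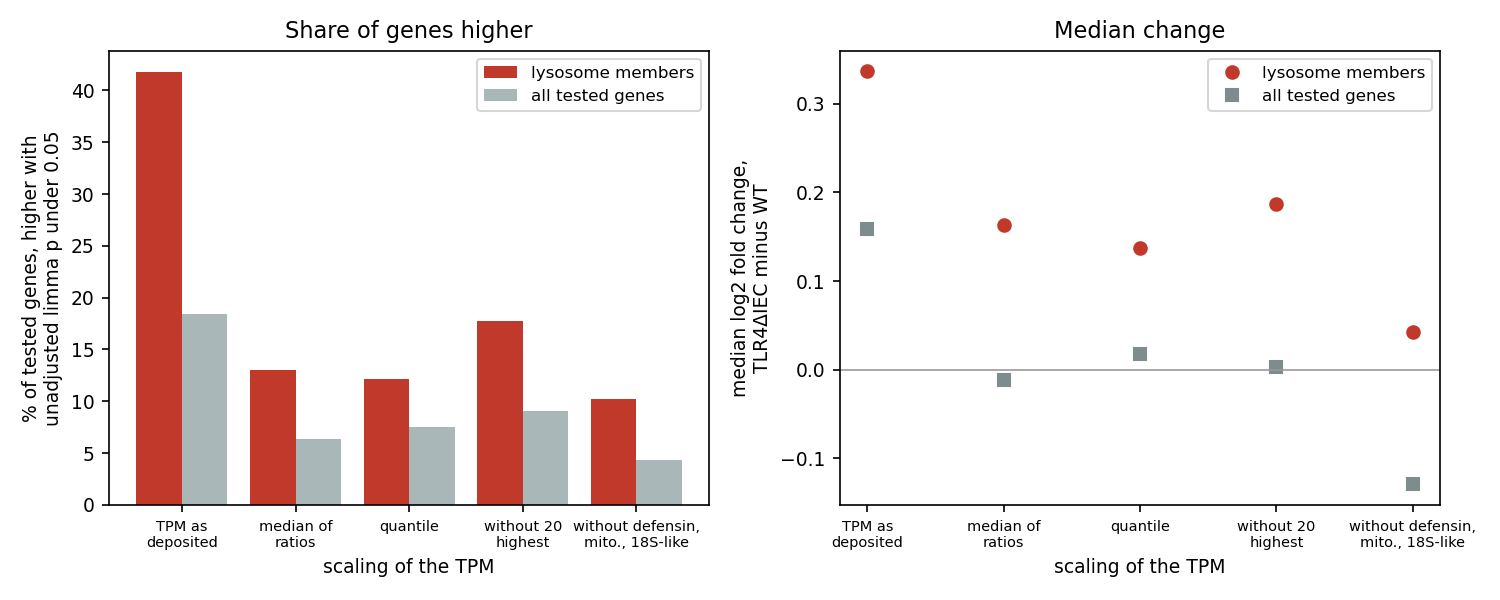
Left, the share of tested genes that were higher in TLR4ΔIEC at an unadjusted limma p under 0.05 (bars, in %), for lysosome members and for all tested genes, under 5 scalings of the TPM; right, the median log2 fold change of the same genes. The members' share ran from 41.7% with the TPM as deposited to 10.3% without alpha-defensin, mitochondrial and 18S-like genes, and in each scaling the members lay above all genes in both panels.

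Fold changes differed between members of low and high level. Among 42 members with a mean of 1 to under 10 TPM the median log2 fold change was 0.02, and 4 were higher at an unadjusted p under 0.05 (9.52%), close to the 0.04 and 7.42% of all genes in that range. Among 40 members at 10 to under 50 TPM the median was 0.36 and 20 were higher (50%), against 0.25 and 26.7% of all genes. All 33 members at 50 TPM or more had a positive fold change, with a median of 0.53, and 24 of them were higher (72.7%). Of all genes at that level 84.3% had a positive fold change, with a median of 0.33, and 35.6% were higher. Groups stood apart with TLR4ΔIEC higher for 78.8% of the members at that level and 41.2% of all genes. These ranges were chosen after the values were seen, and the log2(TPM + 1) scale understates changes of low genes. By class, the medians were 0.46 for glycosidases, 0.44 for membrane proteins, 0.43 for proton pump subunits, 0.37 for proteases, 0.34 for tagging enzymes, 0.32 for sorting adaptors, 0.27 for sulfatases and other hydrolases and 0.15 for lipid enzymes and carriers. The lipid class alone thus lay at the median of all genes. Differences between classes were not tested, since the classes share libraries and hold few genes. Class shares below are set against all tested genes of any level, whose median level was 9.87 TPM. The median level of the classes ran from 7.11 TPM for sulfatases and other hydrolases to 54.9 TPM for the proton pump. Those comparisons are thus mostly between genes of unlike level.

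**Figure D2:**
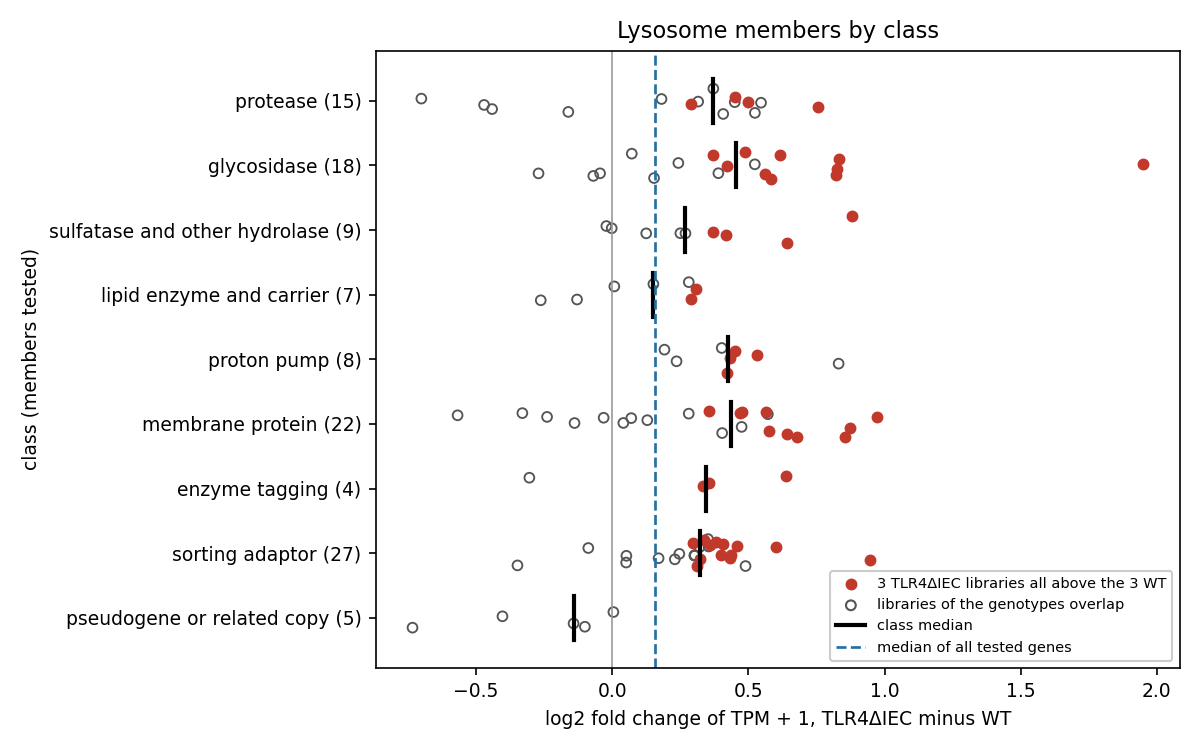
Log2 fold change of each of the 115 tested lysosome members (points), by class, with the class median (black line) and the median of all tested genes (dashed line, 0.16); filled points are the 50 members whose 3 TLR4ΔIEC libraries all lay above the 3 WT libraries. Neu1 stands alone at 1.95, the proton pump subunits all lie above 0, and 4 proteases lie below it.

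Because many lysosome genes carry E-boxes near their start, the promoters of the members were read from RefSeq (assembly GRCm38.p6), from 250 bases before to 50 bases after each start. Promoters were found for 90 of the 115 tested members. A gene with several starts counted as holding a motif if any of its windows did. The core CACGTG, read on both strands, occurred in 24 of them (26.7%), against 8.09% of the 27025 genes in the whole promoter table and 11.6% of the tested genes found in it. The longer TCACGTG, which contains the core, occurred in 21 (23.3%), against 4.29% and 6.83%, and the 10-base palindrome made of GT, the core and AC, which contains both, occurred in 2 (2.22%), Cln3 and Igf2r, against 0.37% and 0.78%. TCACGTG occurred in 11 of 38 promoters of members whose 3 TLR4ΔIEC libraries all lay above the WT libraries (28.9%) and in 10 of 52 promoters of the other tested members (19.2%); for the core alone the shares were 28.9% and 25.0%. By class the core was found in 3 of 4 tagging enzymes, 5 of 10 proteases, 4 of 14 glycosidases, 5 of 17 membrane proteins, 2 of 6 proton pump subunits, 2 of 7 sulfatases and other hydrolases, 3 of 22 sorting adaptors and 0 of 7 lipid genes. A match describes these letters and shows no binding, and these libraries hold no measure of binding.

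The windows below are those of the 11 members that had TCACGTG and whose libraries did not overlap between genotypes, shown as the motif-bearing promoters among the members whose groups stood apart. Each is read 5′ to 3′ on the gene's strand with 20 bases on either side of the outermost match, except that the Nagpa window ends short of 20 bases after its last match. Capitals mark TCACGTG or its reverse complement, extended where both strands match or where the 10-base palindrome is present.
Lamp1 (chr8:13159079-13159171, plus strand): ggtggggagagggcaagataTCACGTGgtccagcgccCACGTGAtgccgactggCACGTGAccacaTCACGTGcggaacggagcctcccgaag
Cd164 (chr10:41519392-41519439, plus strand): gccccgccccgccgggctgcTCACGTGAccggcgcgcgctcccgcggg
Cln3 (chr7:126583330-126583405, minus strand): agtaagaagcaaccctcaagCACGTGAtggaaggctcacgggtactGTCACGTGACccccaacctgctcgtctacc
Ctsd (chr7:142387899-142387946, minus strand): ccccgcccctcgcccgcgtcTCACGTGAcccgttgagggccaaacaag
Gla (chrX:134601173-134601253, minus strand): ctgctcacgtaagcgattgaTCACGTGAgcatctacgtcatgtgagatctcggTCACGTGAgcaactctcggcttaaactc
Atp6v0b (chr4:117887322-117887386, minus strand): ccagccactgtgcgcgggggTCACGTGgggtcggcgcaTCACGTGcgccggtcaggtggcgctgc
Atp6v0d1 (chr8:105566041-105566088, minus strand): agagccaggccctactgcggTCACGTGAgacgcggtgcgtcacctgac
Sumf1 (chr6:108185568-108185615, minus strand): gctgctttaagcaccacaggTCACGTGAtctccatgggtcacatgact
Gnptg (chr17:25240111-25240158, minus strand): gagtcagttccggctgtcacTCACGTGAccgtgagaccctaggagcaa
Nagpa (chr16:5203983-5204043, minus strand): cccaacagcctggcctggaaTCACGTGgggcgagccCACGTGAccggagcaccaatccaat
Igf2r (chr17:12769686-12769775, minus strand): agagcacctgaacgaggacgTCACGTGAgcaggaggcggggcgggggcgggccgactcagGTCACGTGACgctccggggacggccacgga

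Lamp1 had 4 matches in its window, all before the start, and Cln3, Gla, Atp6v0b, Nagpa and Igf2r had 2 each. A further match of Ctsd lies upstream of the window shown. Neu1, whose fold change was the highest of all members, had no match of the core. Its 250 bases before the start are shown for comparison.
Neu1 (chr17:34931003-34931252, plus strand): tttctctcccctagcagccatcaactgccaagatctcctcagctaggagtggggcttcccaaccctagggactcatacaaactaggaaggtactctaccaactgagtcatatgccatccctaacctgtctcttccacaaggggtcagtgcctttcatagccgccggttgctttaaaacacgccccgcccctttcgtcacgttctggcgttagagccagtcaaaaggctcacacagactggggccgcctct

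Glycosidases, which remove sugars from glycoproteins, glycolipids and glycosaminoglycans, had the highest class median. Their 18 tested members summed to 633, 475 and 453 TPM in WT against 773, 1081 and 950.0 TPM in TLR4ΔIEC, a ratio of 1.80. Of them 11 were higher at an unadjusted p under 0.05 (61.1%), 10 had groups that did not overlap (55.6%), and 15 had a positive fold change (83.3%). The shares of all tested genes were 18.4, 24.1 and 68.1%. Neu1 encodes the sialidase that removes terminal sialic acids (ENSMUSG00000007038, plus strand of chr17:34931253-34935953 in GRCm38). It was at 107, 43.9 and 44.0 TPM in WT against 178, 327 and 214 TPM in TLR4ΔIEC. The WT library of replicate 1 thus lay well above the other WT libraries but below every TLR4ΔIEC library. Mean levels came to 65.0 ± 36.5 and 239 ± 77.7 TPM (SD, n = 3 per genotype), with a log2 fold change of 1.95 (SE 0.39, limma adjusted p = 0.094) that was 1.63 to 1.78 in the 4 other scalings. Without WT replicate 1 it was 2.37 and passed the threshold (limma adjusted p = 0.0478).

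Neu1 is known to act in a complex with the β-galactosidase Glb1 and the protective protein Ctsa, a serine carboxypeptidase, and these partners differed less. Glb1 was at 26.3, 19.8 and 17.3 TPM in WT against 31.5, 35.0 and 25.4 TPM in TLR4ΔIEC (log2 fold change 0.52, SE 0.20, limma adjusted p = 0.199). Ctsa was at 124, 101 and 90.8 TPM and at 121, 149 and 161 TPM (0.45, SE 0.18, limma adjusted p = 0.208). For both, WT replicate 1 lay within the range of the TLR4ΔIEC libraries.

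Fuca2 and Hexa were also among the most abundant glycosidases. Fuca2, a fucosidase that is in part secreted (chr10:13499540-13519035), was at 87.2, 69.7 and 70.8 TPM in WT against 96.5, 154 and 163 TPM in TLR4ΔIEC (log2 fold change 0.82, SE 0.23, limma adjusted p = 0.121). Hexa, the α subunit of a hexosaminidase (chr9:59539540-59565109), was at 72.3, 61.9 and 56.4 TPM and at 76.7, 119 and 101 TPM (0.62, SE 0.19, limma adjusted p = 0.152). In both genes the groups did not overlap, WT replicate 1 was the highest WT library and TLR4ΔIEC replicate 1 the lowest of its genotype.

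Other glycosidases spread down to values below 0. Gla, the α-galactosidase A, had a log2 fold change of 0.56, Fuca1 0.49, the α-mannosidase Man2b1 0.42 and the hyaluronidase Hyal2 0.37, all with groups that did not overlap. The groups overlapped in further members, with 0.39 for Naglu, 0.24 for the β-mannosidase Manba, 0.15 for Idua, 0.07 for Aga, −0.04 for the α-glucosidase Gaa, −0.07 for Galc and −0.27 for the β-glucuronidase Gusb. Hyal1, Hyal3, Hyal4, Hyal5, Hyal6 and Spam1 lay under 1 TPM. The 9 tested members that KEGG also lists for glycosphingolipids, among them Galc, Gla, Glb1, Hexa, Neu1 and Arsa, had a median of 0.58, with 7 higher at an unadjusted p under 0.05, and the 13 listed for glycosaminoglycan degradation a median of 0.39, with 7 higher. These counts are 77.8 and 53.8% of their lists, against 18.4% of all tested genes.

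**Figure D3:**
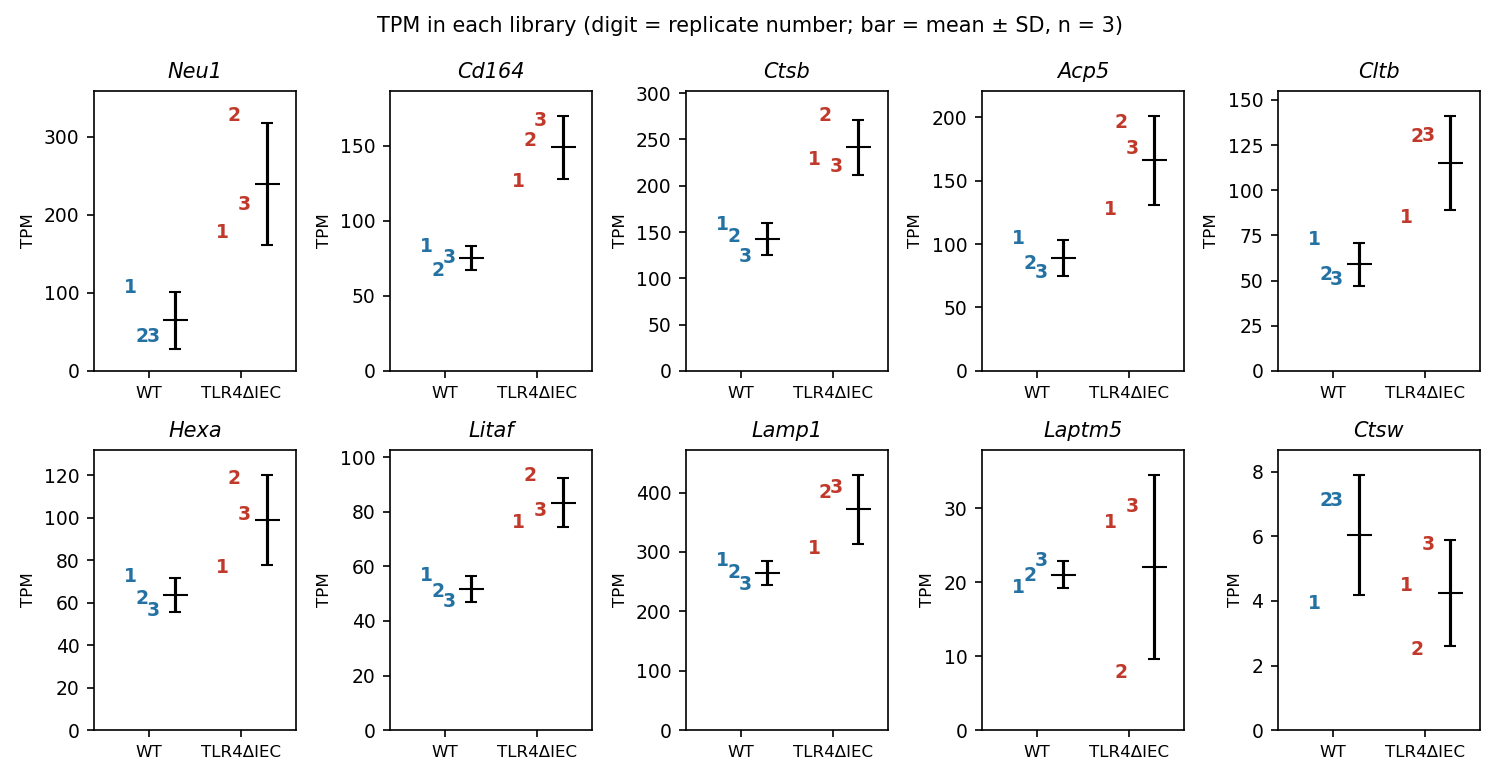
TPM (linear axes from 0) of 10 lysosome members in each library, with the replicate number as the symbol and bars for the mean ± SD of 3 libraries. The TLR4ΔIEC libraries lie above the WT libraries for Neu1, Cd164, Ctsb, Acp5, Cltb, Hexa, Litaf and Lamp1, whereas those of Laptm5 and Ctsw overlap and are lowest in TLR4ΔIEC replicate 2.

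Among the proteases, 15 tested members summed to 821, 769 and 678 TPM in WT against 961, 1080 and 1084 TPM in TLR4ΔIEC, a ratio of 1.38. Of these 5 were higher at an unadjusted p under 0.05 (33.3%, against 18.4% of all tested genes), 4 had groups that did not overlap (26.7%, close to the 24.1% of all tested genes), and 4 had a negative fold change. Their median level was 28.5 TPM. Of all genes at 10 to under 50 TPM, 26.7% were higher and 33.8% had groups apart and higher, so the protease share apart lay below that of this range. Ctsb, cathepsin B, a cysteine protease (chr14:63122462-63145923), was at 158, 145 and 124 TPM in WT against 228, 275 and 221 TPM in TLR4ΔIEC. Its means were 143 ± 17.3 and 241 ± 29.5 TPM (log2 fold change 0.76, SE 0.16, limma adjusted p = 0.0955), and the gap between the groups, from 158 to 221 TPM, was wider than the whole spread of either group. Fdft1 on the opposite strand, with a mean of 69.4 TPM, overlaps 12.8% of the exon bases of Ctsb, and the sources do not state whether read assignment used strand.

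Ctsd, cathepsin D, the main aspartic protease of lysosomes (chr7:142375911-142388038), was at 129.6, 114 and 110.1 TPM in WT against 131, 185 and 189.7 TPM in TLR4ΔIEC (0.50, SE 0.18, limma adjusted p = 0.184). Its TLR4ΔIEC replicate 1 lay just above the highest WT library. Ctso, a low-level cathepsin, was at 6.30, 5.42 and 5.76 TPM and at 8.57, 8.15 and 8.24 TPM (0.45, SE 0.14, limma adjusted p = 0.152), with narrow groups that did not overlap. Ctsz, an exopeptidase and the protease with the second highest mean level, was at 156, 188 and 147 TPM and at 176, 231 and 205 TPM (0.32, SE 0.17, limma adjusted p = 0.323). Ctsz overlapped between groups and its value was −0.01 after quantile normalization.

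Cathepsin C (Ctsc) had a log2 fold change of 0.29 with groups that did not overlap, and cathepsin L (Ctsl) had 0.41, tripeptidyl peptidase Tpp1 0.37 and Ctsh 0.18 with groups that overlapped. Lgmn, the asparaginyl endopeptidase legumain, was at 64.9, 52.5 and 40.6 TPM in WT against 103, 54.8 and 77.5 TPM in TLR4ΔIEC (0.55), so that its TLR4ΔIEC replicate 2 lay among the WT libraries. Napsa had 0.52 from levels of 1.61 to 8.12 TPM. The placental cathepsins Cts3, Cts6, Cts7, Cts8, Ctsj, Ctsm and Ctsq, together with Ctsll3 and the neutrophil protease Ctsg, were at 0 in every library.

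Members with a negative fold change included genes that are best known from leukocytes. Ctsw, a cathepsin of cytotoxic lymphocytes, was at 3.91, 7.11 and 7.11 TPM in WT against 4.48, 2.49 and 5.75 TPM in TLR4ΔIEC (log2 fold change −0.44, SE 0.31, limma adjusted p = 0.465). The 6 markers of T and NK cells, all with a negative fold change (0 of 6 past the adjusted threshold), summed to 72.7, 272 and 292 TPM and to 118, 70.2 and 133.5 TPM, so Ctsw and these markers were low in WT replicate 1 and TLR4ΔIEC replicate 2 alike. Laptm5, a membrane protein of blood cells, was at 19.2, 20.9 and 22.9 TPM and at 28.0, 7.72 and 30.3 TPM (−0.14, SE 0.47, limma adjusted p = 0.895). The 12 macrophage markers, of which 11 were tested and 0 passed the threshold, summed to 270.3, 235 and 242 TPM and to 335, 114 and 261 TPM, with the lowest sum again in TLR4ΔIEC replicate 2. These markers did not move together. Of those tested, 9 had a negative and 2 a positive fold change, and Cd14 (0.47) was higher with groups that did not overlap. Lyz2, a large part of the sum, was at 90.2, 19.7 and 124 TPM in TLR4ΔIEC. TLR4ΔIEC replicate 2 was the lowest of its genotype for 51 of the 115 tested members. These included Ctsf at 1.72 TPM (log2 fold change −0.47), Ctse at 1.18 TPM (−0.70), Ctsk at 0.97 TPM (−0.16), Gm2a at 5.27 TPM (−0.26) and Entpd4 at 3.01 TPM (−0.57). They also included Gusb at 9.98 TPM (−0.27), Gnptab at 4.27 TPM (−0.30) and Abca2 at 1.04 TPM (−0.24). Entpd4b, with the same exon length as Entpd4 (8074 bases), stood at its highest in that library, at 7.23 TPM. How reads were divided between these genes was not tested. Slc11a1, a metal transporter of phagocytes, was at 4.19, 3.71 and 2.13 TPM and at 3.94, 2.12 and 1.50 TPM (−0.33). The part of leukocyte content in these values was not tested.

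Sulfatases and other hydrolases, 9 tested, summed to 195, 171 and 149 TPM in WT against 232, 311 and 282.5 TPM in TLR4ΔIEC. Of these 3 were higher at an unadjusted p under 0.05 (33.3%) and 4 had groups that did not overlap (44.4%), against 18.4 and 24.1% of all tested genes. Most of the summed TPM came from Acp5, tartrate-resistant acid phosphatase (chr9:22126727-22135711). It was at 105, 84.8 and 77.7 TPM in WT against 127, 195 and 175 TPM in TLR4ΔIEC, with means of 89.0 ± 14.0 and 166 ± 35.0 TPM (log2 fold change 0.88, SE 0.20, limma adjusted p = 0.103). Without TLR4ΔIEC replicate 1, the lowest library of its genotype, the value was 1.06 and passed the threshold (limma adjusted p = 0.0434). Galns, which removes sulfate from keratan sulfate and chondroitin 6-sulfate (chr8:122578242-122611463), was at 10.7, 9.70 and 8.68 TPM and at 14.0, 18.4 and 14.7 TPM (0.64, SE 0.16, limma adjusted p = 0.112). The groups of Galns did not overlap. Acp2, lysosomal acid phosphatase, also had groups apart (0.37), and the sulfatases Arsa (0.27), Arsb (0.25), Arsg (0.12), Sgsh (−0.002) and Ids (−0.02) had groups that overlapped. Dnase2b was at 0 in every library.

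Lipid enzymes and carriers stood closest to the rest of the genes. Their 7 tested members summed to 388, 353 and 308 TPM in WT against 415, 444 and 399 TPM in TLR4ΔIEC, a ratio of 1.20, which is just under the 1.23 by which all genes other than alpha-defensins differed. Psap, the precursor of the saposins that present sphingolipids to their hydrolases (chr10:60277627-60302597), was at 277, 248 and 220.4 TPM and at 302, 337 and 281 TPM (log2 fold change 0.31, SE 0.15, limma adjusted p = 0.303). Npc2, the soluble cholesterol carrier, was at 37.6, 37.6 and 34.6 TPM and at 42.4, 47.6 and 45.1 TPM (0.29, SE 0.12, limma adjusted p = 0.235). The groups of both genes did not overlap in TPM, but their fold changes were −0.02 and −0.03 without alpha-defensin, mitochondrial and 18S-like genes. Lipa, the acid lipase, was at 15.9, 12.4 and 10.5 TPM and at 15.5, 13.3 and 18.6 TPM (0.28), and Ppt1, a palmitoyl-protein thioesterase, at 21.6, 25.1 and 20.5 TPM and at 25.1, 17.2 and 26.1 TPM (0.01). Ppt1 was negative in all 4 other scalings, from −0.31 to −0.16. Ppt2 had 0.15, the phospholipase Pla2g15 −0.13 and the GM2 activator Gm2a −0.26, while Psapl1 was at 0 in every library.

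Membrane proteins, 22 tested, summed to 1034, 899 and 858 TPM in WT against 1248, 1433 and 1466 TPM in TLR4ΔIEC, a ratio of 1.49. Of these 12 were higher at an unadjusted p under 0.05 (54.5%), 10 had groups that did not overlap (45.5%) and 17 had a positive fold change (77.3%). The shares of all tested genes were 18.4, 24.1 and 68.1%. The smallest p of all members belonged to Cd164, a sialomucin of endosomes and lysosomes (chr10:41519414-41531048). It was at 83.0, 67.0 and 75.2 TPM in WT against 126, 154 and 167 TPM in TLR4ΔIEC, with means of 75.1 ± 7.98 and 149 ± 20.8 TPM (log2 fold change 0.97, SE 0.16, limma adjusted p = 0.0828). All TLR4ΔIEC libraries lay well above all WT libraries, and the fold change was 0.65 to 0.80 in the 4 other scalings. It passed the threshold with array weights (1.08, limma adjusted p = 0.0406) and without TLR4ΔIEC replicate 1 (1.09, limma adjusted p = 0.0355).

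Litaf and Laptm4b had the next smallest p among the membrane proteins. Litaf, a protein of late endosomal membranes (chr16:10959275-11066157), was at 56.8, 50.9 and 47.1 TPM in WT against 76.1, 93.3 and 80.6 TPM in TLR4ΔIEC (0.68, SE 0.14, limma adjusted p = 0.0955). Laptm4b, a late endosomal transmembrane protein (chr15:34238028-34284302), was at 48.0, 35.0 and 35.0 TPM and at 59.6, 78.3 and 77.5 TPM (0.86, SE 0.18, limma adjusted p = 0.0982). Both genes had groups that did not overlap in any of the 5 scalings.

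Abundant proteins of the lysosomal membrane differed less than these. Lamp1 (chr8:13159161-13175338), whose product lines the lysosome, was at 285, 266 and 245 TPM in WT against 305, 400.4 and 409 TPM in TLR4ΔIEC (0.47, SE 0.17, limma adjusted p = 0.179). Cd63, a tetraspanin of late endosomes, was at 239.5, 181 and 161 TPM and at 238, 322 and 300.5 TPM (0.57, SE 0.20, limma adjusted p = 0.178), with WT replicate 1 and TLR4ΔIEC replicate 1 side by side. Laptm4a was at 106, 97.8 and 95.0 TPM and at 163, 156 and 126 TPM (0.56, SE 0.15, limma adjusted p = 0.115). In Laptm4a replicate 1 was the highest TLR4ΔIEC library. Lamp2, which serves chaperone-mediated autophagy, was at 64.0, 57.0 and 60.2 TPM and at 104, 76.2 and 107 TPM (0.64, SE 0.17, limma adjusted p = 0.115), with TLR4ΔIEC replicate 2 the lowest of its genotype.

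Channels and transporters were mixed. The transporter Mfsd8 (0.58), the ceroid lipofuscinosis protein Cln3 (0.47) and the cholesterol transporter Npc1 (0.36) had groups that did not overlap. The calcium channel Mcoln1 (0.48), the acetyltransferase Hgsnat (0.40), the cystine transporter Ctns (0.28), Entpd4b (0.13), the sialic acid transporter Slc17a5 (0.07), Abcb9 (0.04), the lysosomal integral membrane protein Scarb2 (−0.03) and Abca2 (−0.24) had groups that overlapped. Lamp3 lay under 1 TPM. Entpd4b has the same exon length as Entpd4 (−0.57), and how reads were divided between them was not tested.

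All 8 tested proton pump members had a positive fold change, against 68.1% of all tested genes. Of the 8, 5 were higher at an unadjusted p under 0.05 (62.5%, against 18.4%) and 4 had groups that did not overlap (50%, against 24.1%). Their median level was 54.9 TPM. Of all genes at 50 TPM or more, 84.3% had a positive fold change, 35.6% were higher and 41.2% had groups apart and higher. The pump members are mainly subunits of the membrane sector V0 of the V-ATPase, which carries protons into the lumen. They summed to 577, 569.8 and 497 TPM in WT against 651, 809 and 776 TPM in TLR4ΔIEC, a ratio of 1.36. Atp6v0c, the proteolipid of the proton channel (chr17:24163866-24169702), was the most abundant at 240.3, 246 and 196 TPM and at 242, 344 and 322 TPM (log2 fold change 0.40, SE 0.19, limma adjusted p = 0.268), and its groups overlapped. The accessory subunit Atp6ap1 was at 52.7, 48.3 and 42.2 TPM and at 58.9, 80.5 and 69.5 TPM (0.53, SE 0.16, limma adjusted p = 0.147). Atp6v0d1 was at 48.5, 42.6 and 38.4 TPM and at 52.6, 60.9 and 64.3 TPM (0.45, SE 0.15, limma adjusted p = 0.162). Atp6v0a2 was at 66.4, 60.4 and 54.8 TPM and at 80.5, 92.2 and 73.6 TPM (0.43, SE 0.15, limma adjusted p = 0.167), and Atp6v0b at 108, 105 and 103 TPM and at 111, 159 and 159.9 TPM (0.42, SE 0.17, limma adjusted p = 0.227). These 4 subunits had groups that did not overlap, although TLR4ΔIEC replicate 1 of Atp6v0b exceeded WT replicate 1 by little. Tcirg1, the a3 subunit known from osteoclasts, had the highest fold change of the class (0.83, SE 0.35), but its levels of 17.2, 20.6 and 14.1 TPM and 54.6, 20.5 and 26.9 TPM overlapped, with TLR4ΔIEC replicate 1 far above the other libraries. Atp6v0a1 had 0.24 and Atp6v1h 0.19, and Atp6v0a4 and Atp6v0d2 lay under 1 TPM.

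Pump subunits outside the KEGG column, mainly of the ATP-hydrolysing sector V1, gave a like picture. Of 15 listed, 11 were tested, 0 passed the adjusted threshold in limma, 6 were higher and 0 lower at an unadjusted p under 0.05, 7 had groups that did not overlap, and the median was 0.44. The 6 and 7 are 54.5 and 63.6% of those tested, against 18.4 and 24.1% of all tested genes. The median level of those tested was 47.6 TPM. Of all genes at 10 to under 50 TPM, 26.7% were higher and 33.8% had groups apart and higher. Atp6v1g1 was at 61.9, 68.4 and 66.7 TPM in WT against 89.6, 108 and 116 TPM in TLR4ΔIEC (0.65, SE 0.14, limma adjusted p = 0.0983). Atp6v1d was at 13.9, 19.2 and 18.4 TPM and at 24.9, 29.3 and 34.5 TPM (0.75, SE 0.18, limma adjusted p = 0.111), and Atp6v0e at 108, 114 and 106 TPM and at 129, 182 and 183 TPM (0.57, SE 0.17, limma adjusted p = 0.141). Atp6v1f, at 94.5 to 108 TPM and 116 to 160.0 TPM, had 0.44.

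Enzymes that tag and activate hydrolases were 4 in number, and all were tested. Sumf1 encodes the formylglycine-generating enzyme that activates all sulfatases (chr6:108107028-108185582). It was at 14.4, 14.2 and 14.2 TPM in WT, a tight group, and at 19.4, 23.7 and 25.6 TPM in TLR4ΔIEC (log2 fold change 0.64, SE 0.15, limma adjusted p = 0.101). Gnptg, the γ subunit of the phosphotransferase that starts the mannose 6-phosphate tag, was at 23.4, 22.2 and 20.2 TPM and at 26.6, 31.2 and 27.2 TPM (0.35, SE 0.14, limma adjusted p = 0.2), and 49.5% of its exon bases overlap Unkl on the opposite strand, at a mean of 2.70 TPM. Nagpa, the uncovering enzyme that completes the tag, was at 11.6, 9.82 and 9.30 TPM and at 11.8, 14.4 and 13.2 TPM (0.33, SE 0.15, limma adjusted p = 0.263). Gnptab, which encodes the catalytic and membrane-spanning part of the same phosphotransferase, went the other way, at 7.21, 8.05 and 7.36 TPM and at 6.41, 4.27 and 7.45 TPM (−0.30, SE 0.21, limma adjusted p = 0.443). Its groups overlapped.

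Sorting adaptors, receptors and coat proteins, 27 tested, summed to 1000.2, 959 and 890.0 TPM in WT against 1177, 1408 and 1356 TPM in TLR4ΔIEC, a ratio of 1.38. Of these 9 were higher at an unadjusted p under 0.05 (33.3%), 13 had groups that did not overlap (48.1%), and 25 had a positive fold change (92.6%). The shares of all tested genes were 18.4, 24.1 and 68.1%. The clathrin light chains had the highest fold changes of the class. Cltb, light chain b (chr13:54592401-54611344), was at 72.6, 53.4 and 50.8 TPM in WT against 85.0, 129.7 and 130.4 TPM in TLR4ΔIEC (log2 fold change 0.95, SE 0.22, limma adjusted p = 0.108), and without TLR4ΔIEC replicate 1 it passed the threshold (1.15, limma adjusted p = 0.0435). Clta, light chain a (chr4:44004452-44032846), was at 252, 223 and 214 TPM and at 277, 403 and 378 TPM (0.60, SE 0.18, limma adjusted p = 0.145). Cltc, the heavy chain that forms the lattice, was at 80.1, 97.3 and 97.8 TPM and at 119, 99.7 and 123 TPM (0.31, SE 0.15, limma adjusted p = 0.292). The heavy chain thus differed less than the light chains, and its value was −0.01 without alpha-defensin, mitochondrial and 18S-like genes, where Cltb kept 0.63 and Clta 0.28.

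Receptors that carry hydrolases from the Golgi did not pass the adjusted threshold. The cation-dependent mannose 6-phosphate receptor M6pr was at 54.9, 54.7 and 50.9 TPM in WT against 73.9, 64.9 and 68.1 TPM in TLR4ΔIEC (0.36, SE 0.12, limma adjusted p = 0.17). Igf2r, the cation-independent receptor, was at 11.8, 9.23 and 9.09 TPM and at 13.7, 14.5 and 13.4 TPM (0.44, SE 0.15, limma adjusted p = 0.175). Both had groups that did not overlap, whereas those of sortilin (Sort1), at 36.3, 27.5 and 26.3 TPM and at 33.2, 44.2 and 51.1 TPM (0.49), overlapped.

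Of the adaptor complexes, AP-1, which works at the trans-Golgi network, had 8 tested subunits with a median of 0.31. AP-3, which serves lysosomal membrane proteins, had 6 with a median of 0.31, and AP-4 had 4 with a median of 0.25. Among AP-1 subunits, Ap1g1 was at 26.6, 26.8 and 24.7 TPM in WT against 34.7, 32.5 and 37.0 TPM in TLR4ΔIEC (0.40, SE 0.12, limma adjusted p = 0.149) without overlap, as were Ap1m2 (0.38) and Ap1b1 (0.32). Ap1s1, the most abundant at 119, 142 and 106 TPM and at 137, 187 and 132 TPM (0.30), overlapped, as did Ap1g2 (0.35), Ap1m1 (0.25), Ap1s3 (−0.09) and Ap1s2 (−0.35). Ap3b1 (0.43), Ap3s1 (0.41) and Ap3d1 (0.30) of AP-3 had groups that did not overlap, and Ap3m2 (0.32), Ap3s2 (0.30) and Ap3m1 (0.23) had groups that overlapped. In AP-4, Ap4b1 had 0.34 without overlap. However, 82.4% of its exon bases lie within Gm43064 on the same strand, and reads from those bases may belong to either gene. Ap4m1 (0.35), Ap4s1 (0.17) and Ap4e1 (0.05) overlapped. Of the GGA adaptors, Gga1 had 0.46 without overlap, and Gga2 (0.30) and Gga3 (0.05) overlapped. Ap3b2 lay under 1 TPM.

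The remaining 68 members of the KEGG column are pseudogenes, antisense or other non-coding rows and less known copies of lysosome genes, with 31 processed pseudogenes and 3 T cell receptor V rows among them. Of these 38 were at 0 in every library and 5 were tested. The tested rows had a median of −0.14 and no group apart: Gm27177 (0.004), Gm43064 (−0.10), Gm16867 (−0.14), Ctla2a (−0.40) and Ctla2b (−0.73), the lowest value of all members. Gm16867 and Gm27177 lie opposite Entpd4 and Entpd4b and share over 20% of exon bases with them. In all, 29 of the 115 tested members share exon bases with another tested gene, 11 of them over 20%.

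By their median log2 fold change, regulators of lysosome biogenesis, which are not in the KEGG column, stood nearer to all genes than its members did. Of 29 listed, 26 were tested with a median of 0.20, 0 passed the adjusted threshold in limma, and at an unadjusted p under 0.05 4 were higher and 1 lower. The 4 are 15.4% of the regulators tested, below the 18.4% of all tested genes, and 10 regulators (38.5%, against 24.1%) had groups that did not overlap, all higher. The fold change was positive for 22 regulators (84.6%), against 80% of the members and 68.1% of all tested genes. The median level of the regulators was 9.12 TPM and that of the members 17.8 TPM, so their medians compare genes of unlike level. Tfeb was at 8.32, 9.42 and 8.47 TPM in WT against 9.62, 12.7 and 11.6 TPM in TLR4ΔIEC (log2 fold change 0.33, SE 0.16, limma adjusted p = 0.277), and Tfe3 had 0.33 (SE 0.17, limma adjusted p = 0.311). Lamtor1, which anchors the Ragulator complex to the lysosome, was at 60.9, 57.5 and 54.0 TPM and at 69.9, 92.8 and 83.3 TPM (0.50, SE 0.15, limma adjusted p = 0.14). Lamtor5 of the same complex had 0.46 (SE 0.14, limma adjusted p = 0.151), and Rheb, the GTPase that activates mTORC1 at the lysosome, 0.45 (SE 0.13, limma adjusted p = 0.127). The regulator with the unadjusted p under 0.05 on the lower side was Rragd, a Rag GTPase chosen for mention after its value was seen. It was at 6.82, 12.5 and 11.6 TPM and at 4.11, 4.27 and 7.25 TPM (−0.86, SE 0.28, limma adjusted p = 0.162), and its groups overlapped.

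Libraries of a genotype were not alike. WT replicate 1 was the highest WT library for 77 of the 115 tested members and WT replicate 3 the lowest for 71. In TLR4ΔIEC, replicate 2 was the lowest for 51 members and the highest for 36, replicate 1 was the lowest for 46, and replicate 3 was the highest for 45. Over all members the median deviation from the mean of the 6 libraries was −0.05, −0.18 and −0.30 in WT and 0.13, 0.15 and 0.23 in TLR4ΔIEC on the log2(TPM + 1) scale. Glycosidases and pump subunits stood highest in TLR4ΔIEC replicates 2 and 3, where alpha-defensins held the smallest share. In replicate 2 of that genotype, proteases stood at −0.05, lipid enzymes and carriers at −0.08 and sulfatases and other hydrolases at 0.02. Tagging enzymes, membrane proteins and sorting adaptors stood at 0.30, 0.25 and 0.13 there, and macrophage markers at −0.72. In summed TPM the proteases held 961, 1080 and 1084 in TLR4ΔIEC, so replicate 2 was not their lowest library. Whether alpha-defensin share or macrophage content had a part in these values was not tested. Of the 48 members higher at an unadjusted p under 0.05, 18 stayed so whichever library was left out, among them Acp5, Cd164, Cltb, Ctsb, Fuca1, Fuca2, Galns, Lamp2, Laptm4a, Laptm4b, Litaf, Mfsd8, Neu1 and Sumf1. The share of all tested genes that stayed so was not counted, so whether members were kept more often is open.

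**Figure D4:**
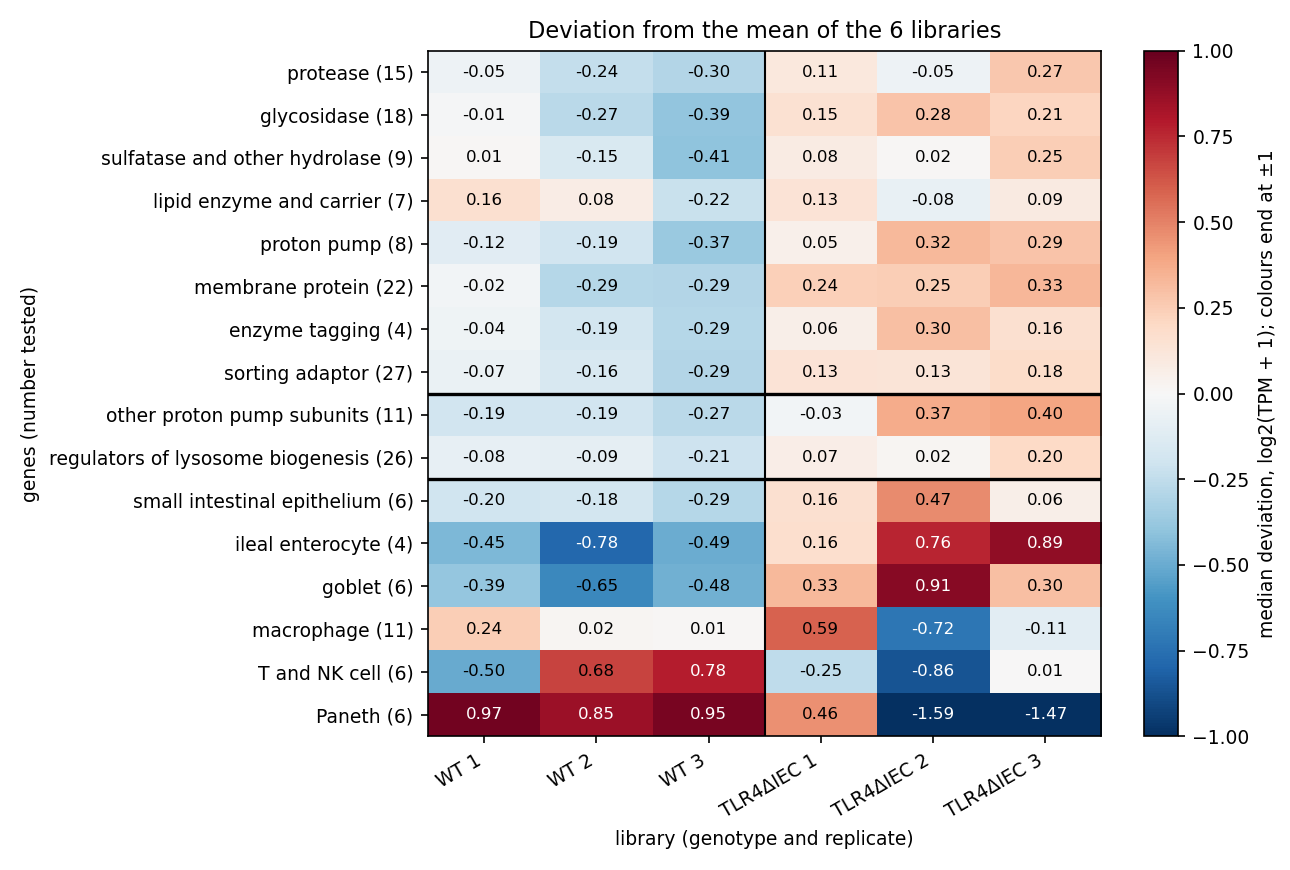
Median deviation of log2(TPM + 1) from the mean of the 6 libraries (colour and printed value, colours ending at ±1), in each library, for the classes of lysosome members, related genes outside the KEGG column and cell type markers, with the number of genes tested in brackets. The lysosome classes are mostly negative in WT and positive in TLR4ΔIEC, from −0.41 to 0.33, while Paneth markers run from 0.97 to −1.59 and macrophage markers are lowest in TLR4ΔIEC replicate 2.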

How the data were processed

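RNA sequencing libraries of whole small intestine were compared between 3 WT and 3 TLR4ΔIEC mice. TRIzol RNA was made into Illumina libraries, per the labels' protocols. The tools HISAT, RSEM and fastp and the build GRCm38.p5 are named, with no versions or settings, in the submitters' processing notes. The authors deposited TPM for each gene in each library, per the file headers. Its group means were not used. Depth is unknown, since TPM keep no read totals, so no counting interval is given.

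Tested genes had a mean of 1 TPM or more across the 6 libraries. They were compared on log2(TPM + 1), a pseudocount of 1, with limma 3.58.1 in R 4.3.3 (lmFit, eBayes with trend, two-sided, with a genotype term only), adjusting p-values by Benjamini-Hochberg over all 13458 genes at 0.05. The fit was tested on simulated data. Groups come from sample titles. Replicate numbers name no shared animal, and same-numbered libraries did not deviate together (r = −0.0374, 0.0351 and 0.118), so no block was used. Within a genotype, libraries correlated at 0.939 to 0.977, and no library was a copy of another. P-values weigh the difference between genotypes against the spread between libraries of a genotype, which limma moderates across genes.

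Members were taken from the KEGG column and sorted by hand into 8 classes and a class of copies. In each class the 3 smallest p-values and the 3 highest mean TPM (in the regulator and pump lists the 3 smallest p-values and the 2 highest means) set which genes are given in detail, and other members are named to account for the class. Some members are not reported here by name and remain in the counts. Members, classes and lists were chosen with earlier results of these data known. Gene positions are from GENCODE M21 (GRCm38), and promoters from RefSeq (GRCm38.p6). The scalings divided TPM by median ratios over tested genes, quantile-normalized them, or rescaled them without the 20 highest genes or without alpha-defensin, mitochondrial and 18S-like genes (Rn18s, Cmss1 and Gphn). Other alternatives were the pseudocount, the filter, array weights, no trend, a replicate block, and leaving out each library.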

Additional observations from a re-analysis of the deposited data

How the results depend on the processing

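No member passed the adjusted threshold in limma except with array weights (1), without WT replicate 1 (1) and without TLR4ΔIEC replicate 1 (4), a range of 0 to 4 over left-out libraries. At an unadjusted p under 0.05, members higher numbered 48 as reported, 15 with median-of-ratios scaling, 14 with quantile normalization, 21 without the 20 highest genes and 12 without alpha-defensin, mitochondrial and 18S-like genes, and members lower numbered 0, 3, 2, 0 and 3. Leaving out 1 library gave 21 to 47 higher and 0 to 3 lower: 44 without WT replicate 1, 24 without WT replicate 2, 21 without WT replicate 3, 47 without TLR4ΔIEC replicate 1, 41 without replicate 2 and 31 without replicate 3. Of all tested genes, 15.8, 10.7, 9.85, 21.7, 17.4 and 14.2% were higher in these fits, in the same order. Members whose groups did not overlap numbered 50 higher and 0 lower as reported, then 18 and 5, 19 and 4, 31 and 2, and 13 and 6 in the same order of scalings, with 52 to 67 and 0 to 7 over left-out libraries. In the 4 other scalings the members apart and higher were 15.7, 16.5, 26.3 and 11.1%, beside 9.70, 11.1, 13.1 and 6.13% of all genes. Over left-out libraries they were 44.8 to 57.8%, beside 26.9 to 36.2% of all genes. The median log2 fold change of the members was 0.16, 0.14, 0.19 and 0.042 in that order, and that of all genes −0.01, 0.02, 0.003 and −0.13. Class medians in that order were 0.16, 0.13, 0.18 and 0.039 for tagging enzymes, 0.25, 0.21, 0.27 and 0.13 for membrane proteins, 0.23, 0.13, 0.25 and 0.105 for the proton pump and 0.16, 0.10, 0.19 and 0.040 for sorting adaptors. With quantile normalization and without alpha-defensin, mitochondrial and 18S-like genes they were 0.22 and 0.11 for glycosidases and 0.17 and 0.068 for proteases, and in the last of these −0.015 for sulfatases and other hydrolases. The same exclusion turned Ap1s1 (−0.019), Cltc (−0.011), Lipa (−0.022), Psap (−0.017), Ctsz (−0.0073) and Npc2 (−0.027) negative, and quantile normalization turned Ctsz (−0.011) and Npc2 (−0.010). Ppt1 was −0.18 with median-of-ratios scaling, −0.21 with quantile normalization, −0.16 without the 20 highest genes, −0.31 without alpha-defensin, mitochondrial and 18S-like genes, −0.016 without WT replicate 1, −0.051 without WT replicate 3, −0.070 without TLR4ΔIEC replicate 1 and −0.10 without TLR4ΔIEC replicate 3. The cause of these changes was not tested. Over all genes, no filter gave a median of 0.02. A replicate block gave 0 members past the threshold and 36 higher at an unadjusted p under 0.05, and the numbers do not pair the samples. Of the named members, 4 passed the threshold without TLR4ΔIEC replicate 1, together with the pump subunits Atp6v0e (0.73) and Atp6v1g1 (0.76). With TPM alone, depth cannot be given for any member.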
